A study of Mus musculus with 15 samples.

Results

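Krüppel-like factors (KLFs) were followed in tumor-associated macrophages (TAMs): Klf2, Klf3, Klf4, Klf6, Klf7, Klf9, Klf10, Klf11 and Klf13. The 9 genes were taken by symbol from the expression table, which lists 55335 genes, and all 9 passed the filter on low values. RNA-seq was run on 15 samples of total RNA from TAMs of C57BL/6 mice that carried orthotopic hepatocellular carcinoma (HCC). The tumors grew in the liver from Hepa1-6 cells, a mouse hepatoma line. Of the 3 groups, 1 held tumors of control cells, 1 held tumors of cells overexpressing miR-144, and 1 held tumors of cells overexpressing miR-451a, with 5 samples each. Mouse age and sex are not in the labels, and every sample is described as untreated. The miRNAs were introduced into the tumor cells with lentivirus, not into the macrophages that were sequenced, so each group contrasts TAMs from differently modified tumors. The study asked whether antitumor molecules of TAMs increased when either miRNA was overexpressed in HCC cells. The labels do not say that the samples came from separate mice, and p-values here measure only the spread between these samples. The replicate number in the legend for this RNA-seq is smaller than the number of samples in the table, and which samples it covers is not stated.

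Values are FPKM, fragments per kilobase of transcript, scaled to the mapped fragments of the sample, so levels can be set side by side between genes. The depth implied by the steps between low values was 16.1 to 31.4 M fragments per sample, and it is approximate. The macrophage markers Adgre1, Itgam, Csf1r, Cd68, Lyz2, Mertk and Fcgr1 were all detected, with a summed level of 8694 to 9526 FPKM in the control group, 14689 to 16545 FPKM with miR-144 and 14383 to 15593 FPKM with miR-451a. Most of this sum was Lyz2 (6894 FPKM in the control group and 13171 and 12581 FPKM with miR-144 and miR-451a), while Cd68 was lower in both miRNA groups (1444, 919 and 910 FPKM). Hepatocyte and T cell markers summed to no more than 0.253 and 0.159 FPKM in any sample, and 6 of their genes (Alb, Apoa1, Apoc3, Ttr, Cd3g, Cd3e) stayed at 0 throughout. Other lists moved with the groups. The monocyte list (with Ly6c2, Ccr2, Chil3 and Plac8) summed to 4014 to 5782 FPKM in the control samples, nearly all from Chil3, and to 6.89 to 12.4 FPKM in the other 10, whereas its Plac8 averaged 3.05, 8.46 and 7.19 FPKM and its Ccr2 0.161, 1.05 and 1.39 FPKM in the control, miR-144 and miR-451a groups. The endothelial list summed to 45.7 to 50.4 FPKM in the control samples, mostly Vwf, and to 10.7 to 13.5 FPKM elsewhere, with Clec4g at 0 in all 15, whereas its Kdr averaged 2.80, 3.84 and 4.07 FPKM. The neutrophil list summed to 78.7 to 95.8 FPKM against 48.4 to 57.0 FPKM, mostly Csf3r. The fibroblast and stellate cell list summed to 105.6 to 131.0 FPKM against 141.0 to 230.7 FPKM, and the Kupffer cell list to 19.1 to 25.0 FPKM against 23.8 to 58.9 FPKM with Clec4f at 0 in all 15. In the last list Cd5l averaged 3.40, 29.8 and 27.1 FPKM and Nr1h3 18.4, 8.45 and 7.46 FPKM. The B cell list summed to 0.138 to 0.375 FPKM in the control samples and to 1.11 to 1.73 FPKM in the others, and the erythroid list to no more than 0.226 FPKM in any sample. The methods name a sort on CD11b and F4/80, a gate that endothelial cells, fibroblasts, B cells and most neutrophils would not pass, and give no purity for these samples. The part of these lists in the results below was not tested. In bulk samples, fewer cells of a type and less RNA per cell cannot be told apart.

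KLFs are transcription factors with a C-terminal block of zinc fingers that binds CACCC and GC-rich elements, and they share these sites with the related SP factors. Their N-terminal parts set them apart. KLF2, KLF4, KLF6 and KLF7 carry activating regions, KLF3 recruits the corepressor CtBP, and KLF9, KLF10, KLF11 and KLF13 recruit the Sin3A repressor complex. In macrophages, KLF2 restrains inflammatory activation, KLF4 is tied to monocyte differentiation and to alternative activation, and KLF6 to the inflammatory response. KLF9 is a classic target of glucocorticoid and thyroid hormone, and KLF10 and KLF11 are early targets of TGF-β.

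The sequences upstream of Klf2, Klf4 and Klf9 are shown because Klf9 and Klf4 were the members lower in TAMs from miRNA-overexpressing tumors, and Klf2 is the close relative of Klf4 that was not. They are the 200 bases on the strand of the gene before its RefSeq or GENCODE M21 start, whichever lies farther upstream, from RefSeq sequence of the GRCm38.p6 build, at chr8:72318833-72319032 (plus strand) for Klf2, chr4:55532476-55532675 (minus strand) for Klf4 and chr19:23141026-23141225 (plus strand) for Klf9. Capitals mark matches on either strand to the KLF site CACCC, the GC box GGGCGG, the CCAAT box, the TATAA box, the STAT element TTCNNNGAA and the MEF2 element. In Klf9 a pair of CCAAT matches on opposite strands overlap, and in Klf4 a pair of TATAA matches do.
Klf2: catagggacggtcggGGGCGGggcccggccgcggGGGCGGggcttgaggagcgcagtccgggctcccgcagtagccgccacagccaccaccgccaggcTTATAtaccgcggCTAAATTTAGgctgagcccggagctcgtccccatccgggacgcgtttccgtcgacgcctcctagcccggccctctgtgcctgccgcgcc
Klf4: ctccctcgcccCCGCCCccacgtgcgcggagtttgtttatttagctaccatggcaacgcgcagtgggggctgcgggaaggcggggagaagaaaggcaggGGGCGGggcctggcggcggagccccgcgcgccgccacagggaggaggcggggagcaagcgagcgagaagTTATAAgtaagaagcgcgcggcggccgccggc
Klf9: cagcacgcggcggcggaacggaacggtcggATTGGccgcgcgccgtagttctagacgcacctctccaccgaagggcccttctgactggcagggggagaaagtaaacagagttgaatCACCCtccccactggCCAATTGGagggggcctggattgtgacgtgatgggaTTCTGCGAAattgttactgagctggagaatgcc

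Over the full 300-base RefSeq promoters, 8 of the 9 members had an entry and Klf10 had none. The GC box GGGCGG was found in 7 of 8, every one but Klf9, against 35.7% of 32851 promoters of the same length. CACCC occurred in 5 of 8 against 57.5%, CCAAT in 4 of 8 against 37.4% and TATAA in 2 of 8, Klf2 and Klf4, against 24.9%. The MEF2 element was found in 1 of 8, Klf2, against 3.19%, and TTCNNNGAA in 1 of 8, Klf9, against 8.30%. The AP-1 element (TGACTCA or TGAGTCA) occurred in none against 5.20%, and TGACGTCA in none against 1.79%. A match is a description of letters and not a binding site.

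The overexpressed miRNAs are shown with the seed, bases 2 to 8, in capitals, because the groups differ in them. RefSeq places them on the plus strand of GRCm38.p6 at chr11:78073047-78073066 (miR-144-3p), chr11:78073010-78073032 (miR-144-5p) and chr11:78073186-78073207 (miR-451a). No seed is shared.
mmu-miR-144-3p: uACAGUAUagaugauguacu
mmu-miR-144-5p: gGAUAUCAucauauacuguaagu
mmu-miR-451a: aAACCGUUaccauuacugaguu

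The longest coding transcript of each member in GENCODE M21 was searched for the complement of each seed. ATACTGT, for miR-144-3p, was in none of the 9 against 17.2% of 21901 genes, and AACGGTT, for miR-451a, was in none against 4.21%. TGATATC, for miR-144-5p, occurred 1 time each in Klf9 and Klf11 and in no other member, against 12.4% of genes. The sequenced cells were not the cells that carried the transgene, and the precursor genes Mir144 and Mir451a were listed at 0 in all 15 samples, so that the overexpression cannot be checked in these libraries.

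Of the 9 members, 7 changed in TAMs from miR-144 tumors and 7 in TAMs from miR-451a tumors, 5 higher and 2 lower in each. Klf9 and Klf4 fell in both. Klf3, Klf6, Klf11 and Klf13 rose in both. Klf7 was called higher only in the comparison of miR-144 with control, and Klf2 only in that of miR-451a with control, and the differences between the 2 comparisons did not pass the test given below. Calls are limma's with a Benjamini-Hochberg adjusted p under 0.05 over 11419 genes. Much of the transcriptome differed as well: 67.2% of tested genes were called against miR-144 tumors (47.1% higher, 20.1% lower) and 68.3% against miR-451a tumors (48.1% higher, 20.3% lower). Groups did not overlap for 6 of 9 members in each comparison, against 53.9% and 55.2% of all genes. The number of members called is thus near the background, and what follows is a description of sizes and levels. The median difference of the members on the log2(FPKM + 1) scale was 0.24 in the first comparison and 0.23 in the second, beside 0.13 and 0.14 over all tested genes. Both comparisons use the same 5 control samples.

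**Figure D1:**
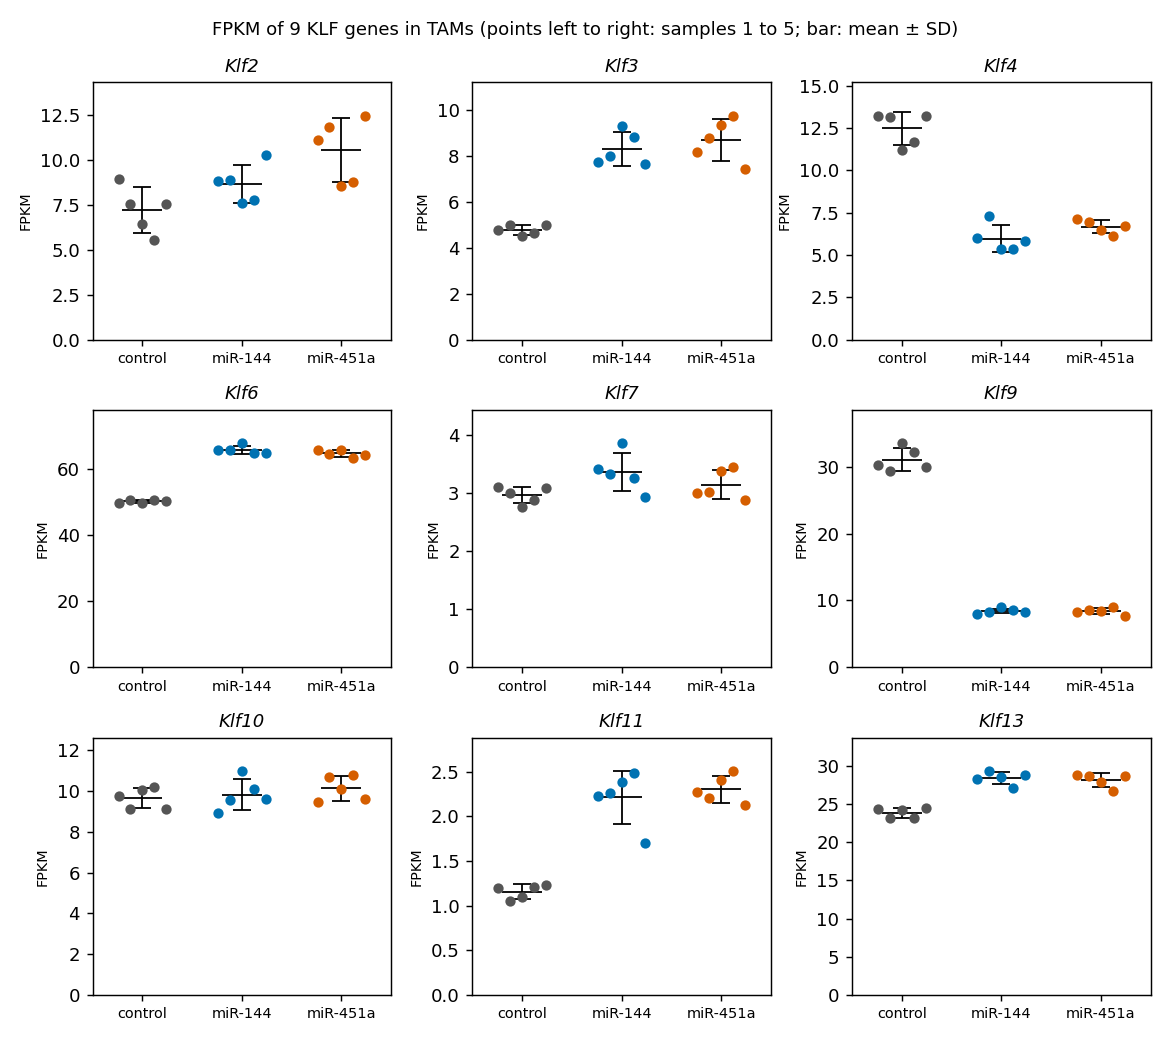
FPKM of each member in every sample. Points are samples 1 to 5 of a group from left to right, and bars are mean ± SD (n = 5). Klf9 lies at 29.4 to 33.5 FPKM in the control samples and at 7.69 to 9.07 FPKM in the other 10, whereas Klf10 overlaps across all 3 groups.

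Klf9 had the largest change of the 9. The gene (ENSMUSG00000033863) lies at chr19:23141226-23168134 on the plus strand in GENCODE M21. Its level in the control samples was 30.3, 29.4, 33.5, 32.2 and 29.97 FPKM. With miR-144 it was 8.03, 8.29, 8.94, 8.59 and 8.28 FPKM, and with miR-451a 8.26, 8.53, 8.45, 9.07 and 7.69 FPKM. Every miRNA sample was below every control sample, and the miRNA groups overlapped each other. Mean FPKM fell from 31.1 ± 1.71 (SD, n = 5) to 8.43 ± 0.352 and 8.40 ± 0.495, which is 3.69-fold and 3.70-fold lower. The difference was -1.77 on the log2(FPKM + 1) scale in each comparison (limma SE 0.04), with adjusted p = 5.46e-14 and 5.14e-14. Only 1.05% and 1.04% of tested genes had a lower difference. KLF9 binds short GC-rich sites and is best known as a hormone-responsive repressor.

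Klf4 fell less. It encodes a zinc-finger factor linked to monocyte differentiation, and the gene (ENSMUSG00000003032) lies at chr4:55527143-55532466 on the minus strand. Control samples had 13.2, 13.1, 11.2, 11.6 and 13.2 FPKM. Values of 6.01, 7.32, 5.36, 5.34 and 5.81 FPKM were found with miR-144 and of 7.10, 6.98, 6.47, 6.14 and 6.72 FPKM with miR-451a. The control samples were above all others, and the control mean of 12.5 ± 0.981 FPKM was 2.09-fold the miR-144 mean of 5.97 ± 0.808 and 1.87-fold the miR-451a mean of 6.68 ± 0.387 FPKM. The differences were -0.96 (95% interval -1.11 to -0.80, adjusted p = 1.37e-08) and -0.81 (-0.96 to -0.66, adjusted p = 9.06e-08) on the log2(FPKM + 1) scale by limma. In 3.45% and 4.39% of tested genes the difference was lower still.

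Klf2, the nearest relative of Klf4 in function, did not fall. The gene (ENSMUSG00000055148) is a single-transcript gene at chr8:72319033-72321656 on the plus strand. Its control values were 8.95, 7.55, 6.41, 5.55 and 7.52 FPKM. They were 8.81, 8.90, 7.59, 7.77 and 10.3 FPKM with miR-144 and 11.1, 11.8, 8.56, 8.75 and 12.4 FPKM with miR-451a. The control sample numbered 1 overlapped both other groups, and the means were 7.20 ± 1.29, 8.67 ± 1.07 and 10.54 ± 1.79 FPKM. The miR-451a difference passed the test by limma (0.49 on the log2 scale, 95% interval 0.23 to 0.75, adjusted p = 0.00215), whereas the miR-144 difference of 0.25 did not (-0.01 to 0.51, adjusted p = 0.0866). Without the control sample numbered 1, the miR-144 difference was 0.32 with a limma adjusted p of 0.0300, and after rescaling to TPM it was 0.34 with a limma adjusted p of 0.0371. The ratio of Klf2 to Klf4 FPKM was 0.574 ± 0.0712, 1.46 ± 0.198 and 1.57 ± 0.211 in the control, miR-144 and miR-451a groups. It lay between 0.476 and 0.677 in the control samples and above 1.21 in each of the other 10.

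Klf6 was the highest member in every sample and varied least. It encodes a broadly expressed factor with an activating region, and the gene (ENSMUSG00000000078) lies at chr13:5861482-5870394 on the plus strand. Its 5 control samples held 49.6, 50.6, 49.8, 50.7 and 50.2 FPKM, a coefficient of variation of 0.988%. The miR-144 samples held 65.8, 65.8, 67.7, 64.8 and 64.8 FPKM and the miR-451a samples 65.8, 64.4, 65.7, 63.2 and 64.3 FPKM. All 10 were above the control samples. Mean FPKM rose 1.31-fold and 1.29-fold, with differences of 0.38 and 0.36 (limma SE 0.02, adjusted p = 5.96e-10 and 1.21e-09) on the log2 scale.

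Klf7 encodes an activator close to KLF6 and lies at chr1:64029447-64122282 on the minus strand (ENSMUSG00000025959), where antisense genes overlap it. Control values were 3.10, 3.01, 2.76, 2.89 and 3.08 FPKM, against 3.41, 3.33, 3.86, 3.27 and 2.94 FPKM with miR-144 and 2.997, 3.01, 3.39, 3.45 and 2.89 FPKM with miR-451a. The 3 groups overlapped. The miR-144 difference of 0.13 (95% interval 0.02 to 0.25) passed the test narrowly, with adjusted p = 0.0438 by limma, and the miR-451a difference of 0.06 (-0.06 to 0.18) did not, with adjusted p = 0.328. The miR-144 call was lost without control sample 2, 3 or 4 (limma adjusted p = 0.0603, 0.102 and 0.0812) and without miR-144 sample 1, 2, 3 or 4 (0.0761, 0.0640, 0.122 and 0.0549). It was also lost without the filter on low values (limma adjusted p = 0.0826). After each sample was centred on its median, the differences were -8.07e-05 and -0.08.

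Klf3 encodes a repressor that works through CtBP. The gene (ENSMUSG00000029178) lies at chr5:64803388-64832901 on the plus strand and overlaps annotated transcripts on both strands, whose reads could not be separated here. Klf3 was at 4.78, 4.999, 4.52, 4.66 and 5.02 FPKM in the control samples. It was at 7.77, 7.999, 9.31, 8.83 and 7.66 FPKM with miR-144 and at 8.18, 8.78, 9.35, 9.76 and 7.45 FPKM with miR-451a. Every miRNA sample exceeded every control sample. The means were 4.80 ± 0.215, 8.31 ± 0.724 and 8.71 ± 0.920 FPKM, a 1.73-fold and a 1.82-fold rise, and the log2 differences were 0.68 and 0.74 (limma SE 0.07, adjusted p = 2.34e-07 and 8.79e-08). Klf8 and Klf12, which also recruit CtBP, were below the filter. Klf8 averaged 1.07 ± 0.0499, 0.898 ± 0.120 and 0.960 ± 0.199 FPKM, and Klf12 0.0368, 0.0812 and 0.0906 FPKM. The ratio of Klf3 to Klf8 was 4.48 in the control group and 9.47 and 9.41 in the others.

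Among the Sin3A-binding members other than Klf9, Klf11 and Klf13 rose and Klf10 did not pass the test. Klf11 (ENSMUSG00000020653, chr12:24651274-24662789, plus strand) was the lowest member in each group. It measured 1.20, 1.05, 1.09, 1.21 and 1.23 FPKM in the control samples, 2.23, 2.26, 2.38, 2.49 and 1.71 FPKM with miR-144 and 2.27, 2.20, 2.40, 2.51 and 2.13 FPKM with miR-451a. No miRNA sample reached down to the control range. The means rose 1.91-fold and 1.99-fold, from 1.16 ± 0.0802 to 2.21 ± 0.301 and 2.30 ± 0.151 FPKM. On the log2 scale the differences were 0.57 and 0.61 (limma adjusted p = 9.34e-07 and 3.81e-07), which understate the change of a gene near 1 FPKM. With a pseudocount of 0.1 they were 0.87 and 0.94.

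Klf13 (ENSMUSG00000052040, chr7:63886351-63938915, minus strand) encodes a factor known for driving Ccl5 in T cells, and annotated antisense genes overlap it. It was at 24.4, 23.1, 24.2, 23.1 and 24.5 FPKM in the control group, at 28.3, 29.3, 28.5, 27.1 and 28.7 FPKM with miR-144 and at 28.8, 28.7, 27.8, 26.7 and 28.6 FPKM with miR-451a. The control samples were all below the others. The rise was 1.19-fold and 1.18-fold, or 0.24 and 0.23 on the log2 scale (limma adjusted p = 4.23e-06 and 7.44e-06). Klf10 (ENSMUSG00000037465, chr15:38291463-38300706, minus strand), the TGF-β-inducible relative of Klf11, was at 9.74, 9.14, 10.04, 10.2 and 9.12 FPKM in the control samples. With miR-144 it was at 8.91, 9.54, 10.98, 10.1 and 9.60 FPKM, and with miR-451a at 9.44, 10.7, 10.1, 10.8 and 9.61 FPKM. The groups overlapped throughout, with log2 differences of 0.02 (95% interval -0.09 to 0.13, adjusted p = 0.719) and 0.06 (-0.05 to 0.18, adjusted p = 0.292) by limma.

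**Figure D2:**
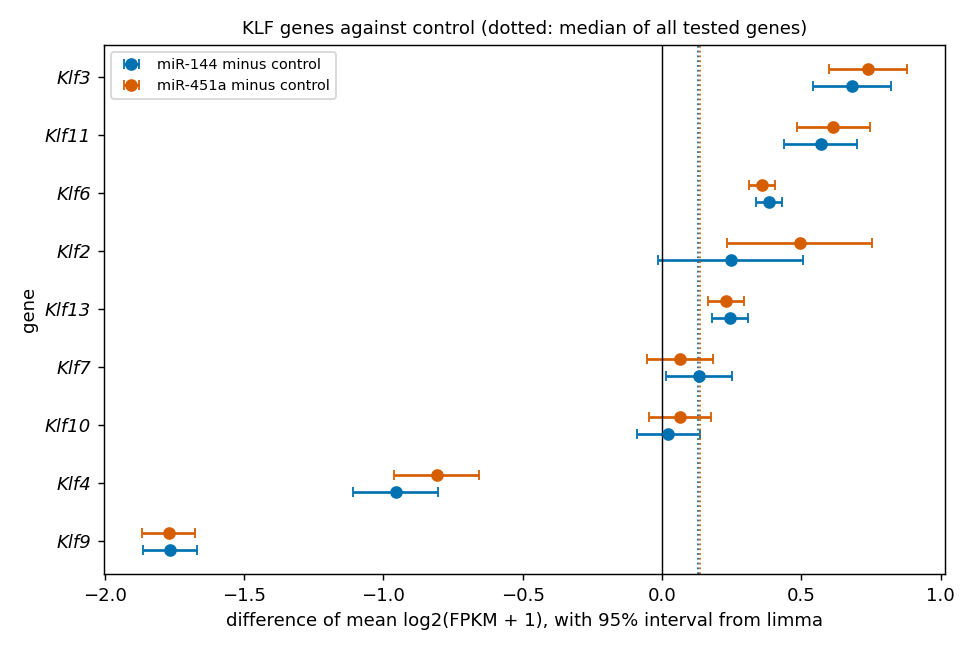
Differences of mean log2(FPKM + 1) from the control group, with 95% intervals from limma, for miR-144 (blue) and miR-451a (orange). Dotted lines mark the median of all 11419 tested genes, 0.13 and 0.14. Klf9 and Klf4 lie on the left, and Klf3 and Klf11 lie farthest to the right.

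The differences depended in part on scaling. Higher calls made up 70.1% of all calls for miR-144 and 70.3% for miR-451a, and these shares were 50.01% and 49.6% once each sample was centred on its median. Klf3, Klf4, Klf6, Klf9, Klf11 and Klf13 kept their calls and directions in both comparisons after rescaling to TPM, after quantile normalization and after median centring. So did Klf2 with miR-451a. Some sizes shrank under median centring: Klf13 went to 0.11 with miR-144 and 0.08 with miR-451a (limma adjusted p = 0.00571 and 0.0236), and Klf6 to 0.25 and 0.22. Klf7 and Klf10 changed sign under median centring and quantile normalization in both comparisons.

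The order of the levels was rearranged (plot of levels by group). In the control group the order was Klf6, Klf9, Klf13, Klf4, Klf10, Klf2, Klf3, Klf7 and Klf11, and no 2 neighbours overlapped. Klf9 dropped from rank 2 to rank 5 with miR-144 and rank 6 with miR-451a. With miR-144, Klf6 and Klf13 were followed by Klf10, Klf2, Klf9 and Klf3, whose neighbours overlapped, and then by Klf4, Klf7 and Klf11. With miR-451a the middle ranks were Klf2, Klf10, Klf3 and Klf9, again with overlapping neighbours. Klf9 was 1.30 times Klf13 in the control group and 0.297 and 0.299 times Klf13 in the others. Klf10, which did not pass the test, was 0.310 times Klf9 in the control group and 1.16 and 1.21 times Klf9 in the others. The FPKM of the 9 genes summed to 143.3 ± 1.31, 141.0 ± 2.64 and 142.7 ± 1.83. Klf9 made up 21.7%, 5.98% and 5.89% of that sum, and Klf6 35.0%, 46.7% and 45.3%. The share of Klf13 was 16.6%, 20.2% and 19.7%, and that of Klf4 was 8.70%, 4.23% and 4.68%.

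**Figure D3:**
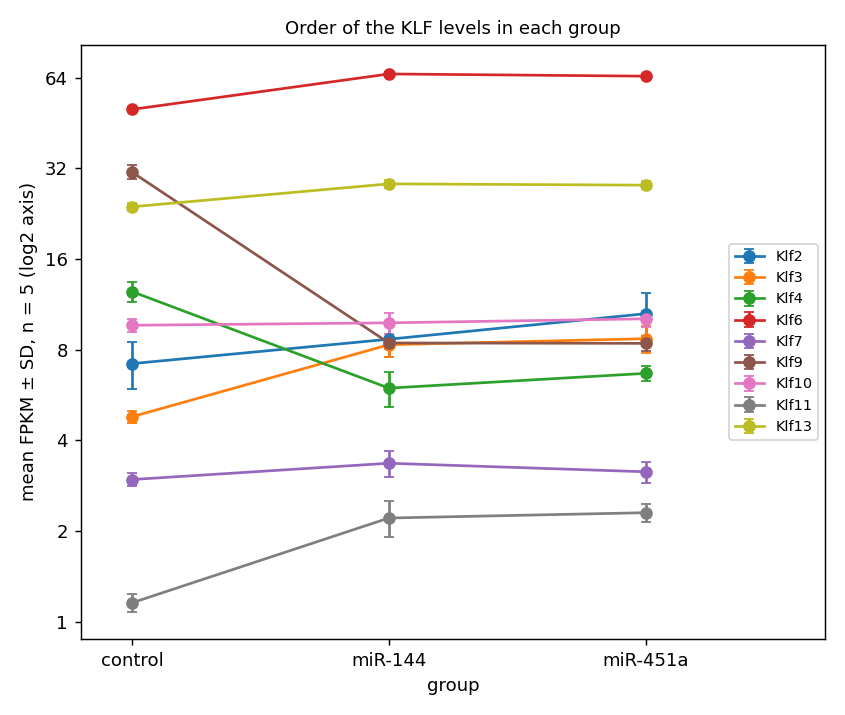
Mean FPKM ± SD (n = 5) of each member by group, on a log2 axis. Lines join the same gene across groups. The line of Klf9 crosses those of Klf13 and Klf10 between the control and the miRNA groups, whereas Klf6 stays on top and Klf11 at the bottom.

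The miRNA groups were also compared with each other. No member differed, and by limma 0 of 11419 genes (0.0%) did, while 596 (5.22%) had an unadjusted p under 0.05, none of them a member. The groups overlapped for all 9 members and failed to overlap for 0.849% of genes. The largest member differences of miR-451a minus miR-144 were those of Klf2 (0.25, 95% interval -0.01 to 0.51, adjusted p = 0.952) and Klf4 (0.15, -0.01 to 0.30, adjusted p = 0.952). For Klf9 the interval was -0.10 to 0.09 and for Klf6 -0.07 to 0.02. The intervals of Klf3 (-0.08 to 0.20), Klf7 (-0.19 to 0.05), Klf10 (-0.07 to 0.15), Klf11 (-0.09 to 0.18) and Klf13 (-0.08 to 0.05) bound what these samples could show. A p that misses the threshold does not show that the groups were alike.

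Within groups, the spread differed between members. Klf2 had a coefficient of variation of 17.9%, 12.4% and 17.0% in the 3 groups, whereas those of Klf6 and Klf13 were at most 3.11%. For Klf2 and Klf4, the samples numbered 3 and 4 were the lowest pair in all 3 groups, as for 3.33% of tested genes. Klf3 had the same pair lowest in the control group and highest in both miRNA groups. Klf9 and Klf10 had it highest in the control and miR-144 groups, and Klf11 had it highest in both miRNA groups. Klf7 had it lowest in the control group and highest with miR-451a, and Klf13 had it lowest with miR-451a. The labels name no batch or date for these numbers, and the pattern was chosen after its values were seen. Without samples 3 and 4 of each group, Klf7 with miR-144 lost its call (0.05, limma adjusted p = 0.416) and every other member call was kept.

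**Figure D4:**
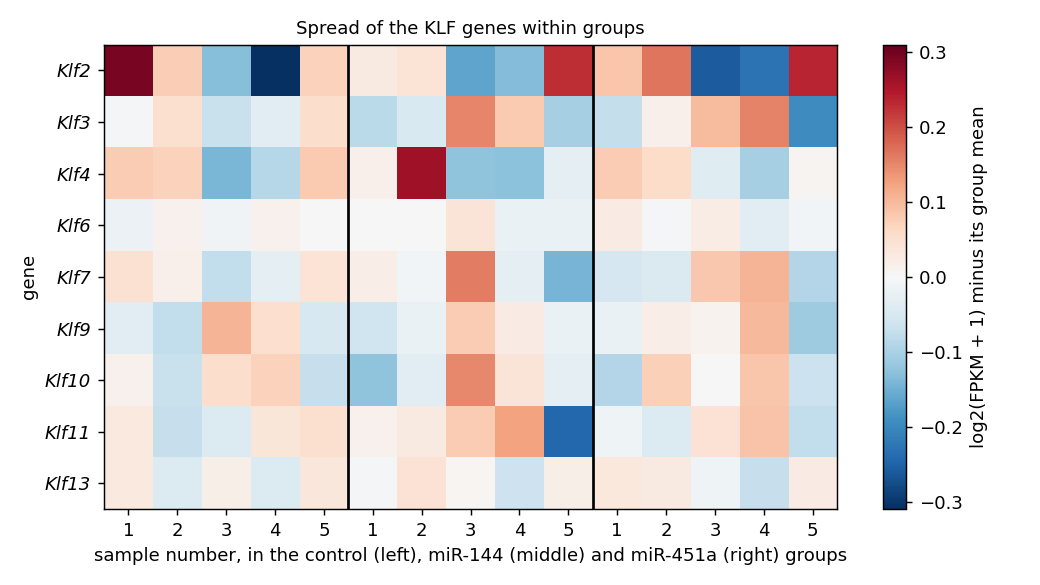
Deviation of log2(FPKM + 1) from its group mean for each member (rows) and sample (columns, numbered 1 to 5 in each group). Red is above and blue below the group mean. Klf2 and Klf4 are blue in samples 3 and 4 of all 3 groups, and Klf6 is near white throughout.

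Other genes of the family were sparse in TAMs. Of the 17 other KLF and SP genes, 11 were under 1 FPKM in all 15 samples, and Klf14, Klf17 and Sp6 were listed at 0. Klf5 and Klf1, the erythroid factor, reached no more than 0.0569 and 0.226 FPKM. Klf16 and Sp1 to Sp4 passed the filter, and 3 of these 5 (Sp2, Sp3 and Sp4) were higher in both comparisons and none lower, where 47.1% and 48.1% of all tested genes were higher. Sp3, which binds the same GC boxes, averaged 12.2, 15.96 and 16.96 FPKM in the control, miR-144 and miR-451a groups (0.36 and 0.43 on the log2 scale, limma adjusted p = 4.77e-05 and 6.09e-06). Sp2 averaged 5.45, 7.53 and 8.38 FPKM, and Sp4 1.46, 2.39 and 2.68 FPKM. Klf16 stayed at 3.85, 3.89 and 3.89 FPKM (0.01 in each, limma adjusted p = 0.856 and 0.854), and under median centring it was lower with miR-451a. Sp1 averaged 9.58 ± 0.962, 11.5 ± 5.24 and 13.5 ± 1.63 FPKM and did not pass (limma adjusted p = 0.669 and 0.113), with miR-144 samples from 5.61 to 16.3 FPKM. Its miR-451a samples (11.6 to 15.1 FPKM) did not overlap the control samples (8.66 to 11.1 FPKM).

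Cofactors of the members were next. Of 10 genes, 9 rose and 1 fell in each comparison, with a median difference of 0.33 and 0.35 against 0.13 and 0.14 over all genes, of which 47.1% and 48.1% were higher and 20.1% and 20.3% lower. Under median centring 8 rose. Those that passed a difference of 0.5 in either comparison were Ep300 (13.1, 20.4 and 20.6 FPKM), an acetyltransferase, Hdac1 (0.52 and 0.50 on the log2 scale), a deacetylase, and the Sin3 complex genes Sap30 (0.57 and 0.55) and Sin3a (0.47 and 0.56). The gene that fell was Ctbp1, a partner of KLF3, at 26.9, 22.9 and 23.1 FPKM (-0.22 and -0.21, limma adjusted p = 4.18e-05 and 6.21e-05), named after its values were seen. Its paralog Ctbp2 rose from 5.18 to 6.92 and 6.62 FPKM.

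Genes of the pathways that induce KLFs mostly rose. Of 13 genes, 11 were higher and 2 lower with miR-144, and 11 higher and none lower with miR-451a, with medians of 0.51 and 0.58. Over all tested genes, 47.1% and 48.1% were higher, 20.1% and 20.3% were lower, and the medians were 0.13 and 0.14. With median centring, 7 and 8 were higher and 2 lower in each. Among the TGF-β genes upstream of Klf10 and Klf11, Smad3, a signal transducer, was at 1.76, 5.86 and 6.05 FPKM (1.32 and 1.35 on the log2 scale), and the receptors Tgfbr1 (16.6, 38.7 and 38.1 FPKM) and Tgfbr2 (16.4, 35.1 and 35.5 FPKM) rose as well. In the ERK5 and MEF2 route to Klf2 and Klf4, Mapk7, which encodes ERK5, went from 5.51 to 9.83 and 9.47 FPKM. Mef2a went from 7.08 to 14.5 and 14.8 FPKM. Mef2c went from 0.787 ± 0.0689 to 2.84 ± 1.48 and 2.86 ± 1.22 FPKM, with medians of 0.771, 1.98 and 2.07 FPKM. Nr3c1, the glucocorticoid receptor and an inducer of Klf9, went from 8.60 ± 1.52 to 12.7 ± 2.504 and 13.4 ± 2.34 FPKM, with overlapping groups (0.51 and 0.58, limma adjusted p = 0.0108 and 0.00464). Its miR-144 call was lost under median centring, under quantile normalization and without samples 3 and 4. The lower genes with miR-144 were Smad2 (-0.15) and the ERK5 kinase Map2k5 (-0.12). Both calls were lost after rescaling to TPM, that of Smad2 also without samples 3 and 4, and that of Map2k5 also without the filter on low values.

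Ubiquitin ligases that act on KLF proteins moved both ways. Of 5 genes, 2 rose and 2 fell in each comparison, against 47.1% and 48.1% of all genes higher and 20.1% and 20.3% lower, and with median centring 1 rose and 2 fell. Wwp1, a ligase of KLF2, was at 38.1 ± 3.54, 114 ± 10.1 and 117 ± 8.08 FPKM (1.55 and 1.60 on the log2 scale, limma adjusted p = 5.02e-11 and 3.30e-11). Fbxw7, a substrate receptor for KLF2, was at 4.96 ± 0.285, 2.47 ± 0.323 and 2.51 ± 0.474 FPKM (-0.78 and -0.77, limma adjusted p = 1.04e-06 and 1.14e-06). Smurf1 was lower (-0.33 and -0.34), Itch higher (0.18 and 0.17), and Vhl did not pass. These are RNA levels, and KLF protein was not measured in these files.

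Of 12 genes reported as KLF targets, 9 were tested and 2 were higher and 4 lower in each comparison, where over all genes 47.1% and 48.1% were higher and 20.1% and 20.3% lower. S1pr1, a receptor gene activated by KLF2 in T cells, was at 4.80 ± 0.603, 19.3 ± 0.828 and 19.5 ± 1.31 FPKM (1.81 and 1.83 on the log2 scale, limma adjusted p = 2.85e-12 and 2.44e-12). Cdkn1a, a cell cycle inhibitor, rose by a smaller amount (0.11 and 0.13). This call was absent in both comparisons under median centring, under quantile normalization and without samples 3 and 4. Mrc1, a marker of alternative activation, fell from 135.3 to 75.9 and 85.0 FPKM, and Lgals3, the galectin-3 gene that KLF3 represses, from 2400.3 to 1027 and 924 FPKM. Retnla was at 414.8 FPKM in the control group and listed at 0 in the other 10 samples. Thbd, Tgfb1 and Ccl5, the last a target of KLF13, did not pass the test. Under median centring Thbd and Tgfb1 were lower with miR-144.

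Immediate early genes were followed because some KLFs also respond fast to serum and stress. Of 15 tested, 3 rose in each comparison, and 9 fell with miR-144 and 10 with miR-451a, with medians of -0.41 and -0.37 against 0.13 and 0.14 over all genes. Of all tested genes, 47.1% and 48.1% were higher and 20.1% and 20.3% lower. Under median centring 11 fell in each. The falls were largest for Egr2 (28.2, 1.94 and 1.34 FPKM), Atf3 (221.9, 67.7 and 60.7 FPKM) and Ier3 (81.2, 23.0 and 24.1 FPKM). Jun was at 77.7, 45.1 and 46.4 FPKM, Fos at 12.01, 7.12 and 7.05 FPKM and Hspa1a at 7.64, 3.08 and 2.76 FPKM. Hspa1b fell too (-0.56 and -0.71). Ier2 (8.26, 15.2 and 16.3 FPKM), Nr4a1 (0.230, 1.36 and 1.56 FPKM) and Btg2 (13.6, 23.2 and 23.3 FPKM) rose. The part of this list in the values of Klf4 and Klf9 was not tested.

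Genes whose pattern over the 15 samples lay nearest to a member were found by the root mean square difference of centred log2(FPKM + 1). For Klf9 they were Pdia4, a chaperone of the endoplasmic reticulum (0.0651, with 145.8, 41.4 and 42.3 FPKM), and Lrrc8b (0.0715). Klf4 was nearest to Fyn, a Src family kinase (0.0683, with 15.3, 7.57 and 8.27 FPKM), and Abcd2 (0.101). The smallest difference of all was that of Klf6 with Tmod3 (0.0257), followed by Capza2 (0.0280), both genes of actin filament ends. Klf13 was nearest to Stat6, a transducer of interleukin-4 signals (0.0299, with 54.8, 66.3 and 66.4 FPKM), and Flot2 (0.0339). Klf3 was nearest to Dock1 (0.0455) and Scarb2 (0.0542), and Klf11 to Igf1r (0.0636) and Nrip1 (0.0659). Klf10 was nearest to Slc38a9 (0.0453) and Prcp (0.0457), and Klf7 to Ago1 (0.0551) and Trim44 (0.0553). The nearest genes to Klf2 lay farther off, with Kdr at 0.131 and Polr1d at 0.132.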

How the data were processed

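RNA-seq of TAMs, which the methods describe as sorted by FACS with CD11b and F4/80 antibodies, was analysed in 15 samples, 5 per group, grouped by the sample title. The authors sequenced RNA on an Illumina HiSeq 3000 and deposited FPKM values per gene and sample. The submitters' processing notes list FastQC 0.11.2, STAR and StringTie, and the genome build and annotation are not given in the sources used here. FPKM is already divided by depth and transcript length. Only 24.3% to 46.3% of low values fell within 0.05 fragments of a whole number (10% by chance), so counts were not recovered.

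Genes averaging 1 FPKM or more over the 15 samples (11419) entered a single limma 3.58.1 model of the 3 groups in R 4.3.3, on log2(FPKM + 1), with its trend option on, and p-values were adjusted by Benjamini-Hochberg over all of them. Fold changes on this scale understate the change of low genes. Tested on simulated data for miR-144 against control over 11419 genes, the fit called 49 of 50 genes raised by 1 on the log2 scale, 47 of 50 raised by 0.5, 44 of 50 lowered by 0.5 and 21 of 50 raised by 0.25, with 5 false calls. Only these genes were changed in the simulation, with independent noise, whereas 67.2% of genes were called in the real comparison. Recovery and false calls there may differ. No 2 samples were identical. Positions and transcripts are those of GENCODE M21 (GRCm38), matched by identifier for all 9 members, and the 300-base promoters and miRNAs are RefSeq sequences. Python 3.11.15, numpy 2.4.6, pandas 2.3.3 and matplotlib 3.10.9 were used.

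The members, the gene lists and the tests were chosen with earlier results of these data known. Named genes are the members, list genes past the test with a difference of at least 0.5, other family genes over the filter, and the 2 nearest genes of each member. Other list genes are named where they complete a small count or a pair of paralogs, and were chosen after their values were seen. Alternatives were another pseudocount, other filters, median centring, quantile normalization, TPM, no trend, only the compared groups, the replicate number as a block and each sample left out. The values of 2 list genes are not reported here, while list counts and sums include them.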

Additional observations from a re-analysis of the deposited data

Results flagged for a closer look

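In each group of 5, the lowest and highest samples were compared with the rest for the 66 genes of the lists, 198 groups in all. By chance 9.9 would stand apart, and 7 did, none of them a member. In the control group, Sp4 was at 0.708 FPKM in sample 5 against 1.59 to 1.68 FPKM in the other samples, Mapk7 at 4.56 FPKM in sample 4 against 5.65 to 5.80 FPKM, Nr3c1 at 5.89 FPKM in sample 5 against 9.12 to 9.59 FPKM, Vhl at 6.87 FPKM in sample 1 against 7.48 to 7.71 FPKM and Egr2 at 6.93 FPKM in sample 5 against 31.1 to 35.0 FPKM. With miR-144, Nr3c1 was at 8.36 FPKM in sample 2 against 12.9 to 14.4 FPKM. With miR-451a, Zfp36 was at 31.8 FPKM in sample 2 against 34.2 to 35.0 FPKM. All 7 were the lowest sample of their group.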

How the results depend on the processing

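The 27 member differences were recomputed under 669 alternatives in all, of which 638 kept direction and call, 10 lost a call, 4 gained one and 17 changed sign. Klf3, Klf4, Klf6, Klf9, Klf11 and Klf13 kept both in every alternative against either miRNA group, and so did Klf2 with miR-451a. The sign changes of Klf7 (miR-144, then miR-451a) were -8.07e-05 and -0.0815 under median centring and -0.0247 and -0.107 under quantile normalization, and those of Klf10 were -0.111 and -0.0802, then -0.0975 and -0.0678. Klf7 with miR-451a was at -0.0351 without samples 3 and 4, an alternative chosen after seeing the data. Between the miRNA groups, Klf9 was at 0.00653 under TPM. With 1 sample left out, Klf10 with miR-144 ranged from -0.0144 to 0.0539, and between the miRNA groups Klf9 ranged from -0.0298 to 0.0231, Klf11 from -0.0156 to 0.0758 and Klf13 from -0.0301 to 0.00407, none past the threshold. TPM added Klf2 with miR-144 (0.34, limma adjusted p = 0.0371) and Klf10 with miR-451a (0.15, limma adjusted p = 0.0316).

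The number of members called ranged from 6 to 8 with miR-144, was 7 throughout with miR-451a and 0 between the miRNA groups when 1 sample was left out. Calls over all genes then ranged from 7385 to 7682, from 7538 to 7817 and from 0 to 2. A minimum mean of 5 FPKM left 4776 and 4821 calls, since fewer genes were tested, and without samples 3 and 4 there was 1 call between the miRNA groups. Quantile normalization made 52.3% of calls higher in each comparison, and TPM 76.5% and 77.3%.

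The labels tie no sample number to a mouse, litter or day. Deviations of same-numbered samples had correlations of -0.1502 to 0.264 (median 0.108), and those of other pairs had a median of -0.0413. Not every pair was above 0.1, so the numbers were not taken to pair the samples. Of 30 best matches, each among 5 candidates and sought from both groups of a pair, 12 shared a number. Whether same-numbered samples share something was not tested. With the number as a replicate block, 7, 7 and 0 members and 7711, 7859 and 0 genes were called. Under the block, Klf7 with miR-144 had an limma adjusted p of 0.0582 and Klf2 with miR-144 of 0.00485. Depth is approximate, and counting error was not modelled, which limits Klf11 and other genes near 1 FPKM most.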
